A study of Mus musculus with 8 samples.

Results

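Cathepsins are the proteases of the lysosome, and 10 of their genes were followed through mixed co-cultures of mouse spleen cells and colon cancer cells: Ctss, Ctsb, Ctsl, Ctsk, Ctsc, Ctsh, Ctsz, Ctsd, Ctse and Ctsa. They were taken by gene symbol from the 52636 gene IDs of the files, and all 10 were present. In the trogocytic group (n = 4), C57BL/6 splenocytes had been kept with sorted trogocytic cancer cells. In the non-trogocytic group (n = 4), the control, they had been kept with sorted non-trogocytic cancer cells. Trogocytosis is the transfer of membrane pieces, with their proteins, from one cell to another. In both groups the cancer cells derived from tdTomato reporter organoids, grown as liver metastases after injection into the spleen and sorted on tdTomato and the T cell protein CD4. In both, the splenocytes came from Actin-GFP reporter mice and were kept with the cancer cells for 5 days at 1 cancer cell to 50 splenocytes. The sources used here do not give the genotype of the organoids, the age of the mice or the number of animals. Nothing in the labels says that replicates were separate animals or cultures, and p-values then reflect only how far the libraries differ, which may be technical.

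Cathepsins are made as inactive proenzymes, sorted to endosomes and lysosomes largely through mannose 6-phosphate tags, and activated when their propeptide is cut off at acid pH. Most are cysteine proteases held in check by cystatins, cathepsins D and E are aspartic proteases, and cathepsin A is a serine carboxypeptidase. Macrophages, which digest what they engulf, are rich in them. In antigen-presenting cells cathepsins cut antigens and the invariant chain for loading onto MHC class II, while epithelial cells use several of the same enzymes for general protein turnover.

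Polyadenylated RNA was sequenced from each whole co-culture. Each value therefore sums over all cell types present, and fewer cells of a type and less RNA per cell cannot be told apart. Levels are given as TPM, a measure of transcript abundance scaled for transcript length. Aligned bases per library came to 1.39 to 1.84 Gb, and log2 values of any pair of libraries correlated at 0.853 to 0.912. Transcripts of both labelled cell kinds were found in every library, by the sums of their markers. Of single markers, 13 of 14 epithelial ones (all but Cdx1) and all 15 macrophage ones were above 0 in at least 1 library, though some were at 0 in others. Summed epithelial markers ran from 5472 to 7207 TPM in trogocytic and from 3396 to 9484 TPM in non-trogocytic libraries. Summed T cell markers ran from 270.2 to 1149 TPM in trogocytic and from 69.0 to 711 TPM in non-trogocytic libraries.

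Promoter sequences are shown first for the 3 members whose windows held a pair of motifs. They come from RefSeq (GRCm38.p6), which had windows reaching from 250 bases before to 50 bases after an annotated start for 7 of the 10 members (Ctsa had 2 windows). The motifs were chosen after these sequences had been seen, and were searched on both strands. CACGTG is the core of the E-box through which TFEB and its relatives act on lysosomal genes, and 7.15% of the 32851 windows of all genes held it. Its longer form CACGTGAC, of which it is a part, was in 2.25%. GAAA followed after any 2 bases by GAAA, a type of site bound by interferon regulatory factors, was in 3.44%, and GAGGAAGT, a type of site bound by the myeloid factor PU.1, in 3.2%. Capitals mark CACGTG and the matches of the interferon regulatory factor and PU.1 types.
Ctsd, chr7:142387908-142388077, minus strand, bases -250 to -81 from the start: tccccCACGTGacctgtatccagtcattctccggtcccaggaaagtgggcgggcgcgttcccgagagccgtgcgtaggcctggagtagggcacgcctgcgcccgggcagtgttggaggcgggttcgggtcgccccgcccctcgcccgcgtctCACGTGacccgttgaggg
Ctsa, second annotated start, chr2:164833693-164833792, plus strand, bases -80 to 20: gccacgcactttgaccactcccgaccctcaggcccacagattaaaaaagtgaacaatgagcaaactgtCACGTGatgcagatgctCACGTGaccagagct
Ctss, chr3:95526706-95526805, plus strand, bases -80 to 20: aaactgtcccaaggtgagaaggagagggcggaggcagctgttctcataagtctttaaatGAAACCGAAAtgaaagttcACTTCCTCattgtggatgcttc
The Ctsd window held CACGTGAC at -245 and at -98. The second Ctsa window held CACGTGAC on one strand at 6 and on the other at -14, and the first held none of the 4 motifs. The Ctss window held none of the E-boxes, and had the interferon regulatory factor type at -21 and the PU.1 type at -2. Of the others, Ctsl had 1 CACGTG at -236 and Ctsc 1 PU.1 type at -151, and the letters of the 4 motifs were not in the windows of Ctsz and Ctsk. The start used for Ctsd lies inside the gene as deposited (142375911 to 142388038, minus strand), and so does the match at -98. The start used for Ctsl and the second start of Ctsa also lie inside the deposited genes. A match is a stretch of letters, and binding was not measured.

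Cathepsin S dominated the family. Mean levels over the 8 libraries were 2834 TPM for Ctss, 601 for Ctsb, 355 for Ctsh, 318 for Ctsz, 283 for Ctsc, 207 for Ctsd, 145 for Ctsl, 27.9 for Ctsa, 4.37 for Ctse and 2.79 for Ctsk. Ctss was above Ctsb in 8 of 8 libraries and Ctsl above Ctsa in 8 of 8, with no overlap of the ranges of Ctsl and Ctsa. The order between them was not fixed: Ctsh was above Ctsz in 5 of 8 libraries, Ctsz above Ctsc in 4 of 8, and Ctsd above Ctsl in 4 of 8. Ctss alone made up 42.4 to 73.7% of the summed cathepsin TPM of a library.

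**Figure D1:**
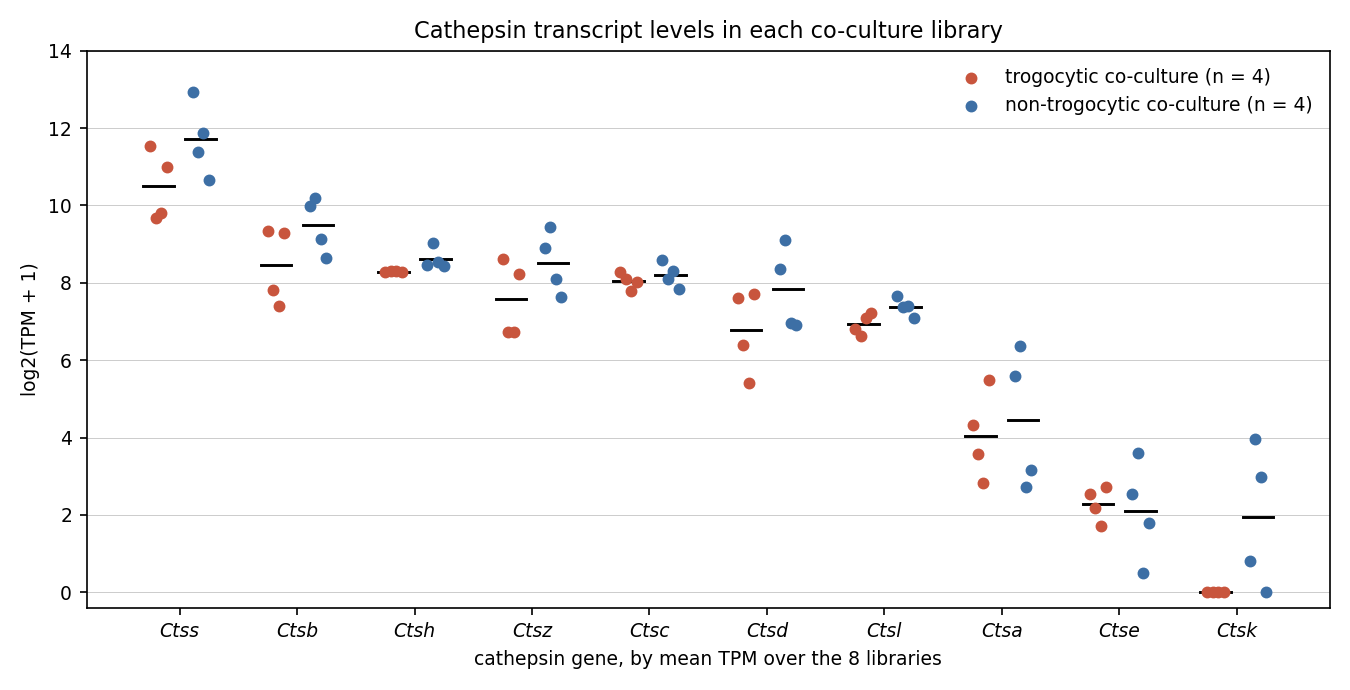
Level of each cathepsin gene as log2(TPM + 1) on the vertical axis, with genes ordered by mean TPM on the horizontal axis. Points are single libraries in replicate order and black lines the mean of each group (n = 4). Ctss stands above Ctsb in all 8 libraries, and the groups overlap for every gene but Ctsh.

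No cathepsin passed the test between the groups, while 8 of the 9 tested had a lower mean log2 level in trogocytic co-cultures. Members with at least 1 TPM in 4 or more libraries were tested with limma on log2(TPM + 1), among 11433 genes, and Ctsk was below that limit. Of the 9 tested, 0 were called at an adjusted p below 0.05, and adjusted p was 0.9998 for each. Of all tested genes 0.0525% were called, 0.035% as lower in trogocytic co-cultures. At an unadjusted p below 0.05 there was 1 member, Ctss, against 4.59% of all tested genes, 2.52% lower in trogocytic co-cultures. A fold change below 0 was found in 8 of 9 members and in 49.3% of all tested genes. The median log2 fold change was -0.45 over the members and 0.01 over all tested genes. Fold changes are trogocytic over non-trogocytic on that log2 scale, on which the added 1 shrinks those of low genes.

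Among the cysteine endopeptidases, cathepsin S cuts the invariant chain in antigen-presenting cells. Ctss (ENSMUSG00000038642.10, chromosome 3, 95526786 to 95556403, plus strand, GRCm38) stood at 2964.5, 821, 902 and 2026 TPM in trogocytic replicates 1 to 4, against 7883, 2690, 3764 and 1624 TPM in non-trogocytic replicates 1 to 4. Trogocytic replicates 2 and 3 lay below every non-trogocytic library, while trogocytic replicates 1 and 4 lay within their range. The means were 1678 ± 1019 TPM in trogocytic and 3990 ± 2738 TPM in non-trogocytic co-cultures (SD, n = 4 each). The log2 fold change was -1.22 ± 0.51 (SE), with a 95% interval of -2.34 to -0.09 and an unadjusted limma p of 0.0362, the 389th smallest of 11433. It did not pass after adjustment (adjusted p = 0.9998), and was -0.81 without non-trogocytic replicate 1.

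Cathepsin B, an endopeptidase that also trims dipeptides from the C-terminus, is made by macrophages and epithelium alike. Ctsb (chromosome 14, 63122462 to 63145923, plus strand) stood at 645.5, 226, 168 and 626 TPM in trogocytic replicates 1 to 4, against 1012, 1172, 560.2 and 397 TPM in non-trogocytic replicates 1 to 4. Trogocytic replicates 2 and 3 were again the lowest 2 of the 8, and the other 2 lay within the non-trogocytic range. The log2 fold change was -1.02 ± 0.48, with an interval of -2.09 to 0.04, and -0.67 without trogocytic replicate 3. Its last 774 bases overlap Fdft1 on the other strand, which averaged 113 TPM in trogocytic and 132 TPM in non-trogocytic libraries, and no source used here gives the strand setting of the counting. Other genes that overlap members averaged at most 10.2 TPM (Nelfcd, 10 bases of overlap with Ctsz).

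Cathepsin L, a broad endopeptidase, varied less. Ctsl (chromosome 13, 64359337 to 64370890, minus strand) stood at 111, 97.9, 136 and 147 TPM in trogocytic replicates 1 to 4, against 201, 167, 167 and 136 TPM in non-trogocytic replicates 1 to 4. Of the trogocytic libraries, 3 of 4 lay below the lowest non-trogocytic one. Trogocytic replicate 3 did so only narrowly, at 135.6 TPM against 136.3 TPM in non-trogocytic replicate 4. The means were 123 ± 22.4 TPM in trogocytic and 168 ± 26.4 TPM in non-trogocytic co-cultures, a log2 fold change of -0.45 ± 0.21.

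Cathepsin K, the collagen-degrading protease of osteoclasts, is also made by fibroblasts, and its gene lies 17.4 kb before Ctss on chromosome 3. Ctsk (95499256 to 95509362, plus strand) was listed at 0 in all 4 trogocytic libraries, against 0.742, 14.7, 6.92 and 0 TPM in non-trogocytic replicates 1 to 4. Those 3 values above 0 rest on about 4.74, 79.3 and 42.8 read pairs over its single annotated transcript. Stromal markers moved with it: their sum was 0 to 0.185 TPM in trogocytic libraries, against 3.07, 11.8, 35.5 and 0.56 TPM in non-trogocytic replicates 1 to 4. Of the 7 stromal markers 6 were above 0 in some library, with Pdgfrb at 0 in all. Summed hepatocyte markers stood at 128 TPM in non-trogocytic replicate 3 and at 0 in the other 7 libraries. Of the 6 osteoclast markers, Ocstamp, Dcstamp, Calcr and Oscar were at 0 in all libraries. The other 2 were Nfatc1 and Acp5, of which Acp5 stood at 67.6, 15.5, 25.7 and 66.7 TPM in trogocytic replicates 1 to 4, against 73.0, 159.6, 71.8 and 69.8 TPM in non-trogocytic replicates 1 to 4. Acp5 and Ctsk were both highest in non-trogocytic replicate 2. The part of these cells in the Ctsk values was not tested.

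Of the exopeptidases, cathepsin H was the 1 member whose groups did not overlap. Cathepsin H removes amino acids from the N-terminus, and is known for processing surfactant protein in lung epithelium. Ctsh (chromosome 9, 90054152 to 90076089, plus strand) stood at 309, 316, 314 and 312 TPM in trogocytic replicates 1 to 4, against 350.2, 526, 368 and 345 TPM in non-trogocytic replicates 1 to 4. The 4 trogocytic libraries lay between 309 and 316 TPM, below all 4 non-trogocytic ones, among which replicate 2 stood apart. The means were 313 ± 3.17 TPM in trogocytic and 398 ± 86.5 TPM in non-trogocytic co-cultures. The log2 fold change was -0.32 ± 0.17, with an interval of -0.70 to 0.06, and -0.18 without non-trogocytic replicate 2. Groups that did not overlap were found in 1 of 9 members and in 2.68% of all tested genes, 1.3% with the trogocytic group lower.

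Cathepsin C, a dipeptidyl peptidase that activates granzymes and neutrophil serine proteases, had the smallest fold change of the 7 members with a mean above 100 TPM. Ctsc (chromosome 7, 88278085 to 88310888, plus strand) stood at 311, 275, 221 and 259 TPM in trogocytic replicates 1 to 4, against 381, 275, 314 and 227 TPM in non-trogocytic replicates 1 to 4. The log2 fold change was -0.15 ± 0.20, and its interval of -0.59 to 0.29 spans 0. Single libraries moved it: leaving out trogocytic replicate 1 gave -0.23 and leaving out trogocytic replicate 3 gave -0.07. Leaving out non-trogocytic replicate 1 gave -0.03, and leaving out non-trogocytic replicate 4 gave -0.28. The proteases that cathepsin C matures were scarce: 0 of 11 listed reached the limit for testing, and their sum was 0 to 9.39 TPM in trogocytic and 0.61 to 8.42 TPM in non-trogocytic libraries.

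Cathepsin Z, a carboxypeptidase mostly of myeloid cells, followed the pattern of Ctsb. Ctsz (chromosome 2, 174427493 to 174439039, minus strand) stood at 391, 105, 106 and 297 TPM in trogocytic replicates 1 to 4, against 481, 692, 274 and 198 TPM in non-trogocytic replicates 1 to 4. Trogocytic replicates 2 and 3 were the lowest of all libraries. The log2 fold change was -0.95 ± 0.50, with an interval of -2.05 to 0.16.

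The aspartic protease cathepsin D is a major lysosomal endopeptidase of most cells. Ctsd (chromosome 7, 142375911 to 142388038, minus strand) stood at 196, 82.9, 41.4 and 208 TPM in trogocytic replicates 1 to 4, against 330, 553, 124 and 119 TPM in non-trogocytic replicates 1 to 4. Its highest library was 13.4 times its lowest, with the 2 groups overlapping. The log2 fold change was -1.05 ± 0.60, with an interval of -2.39 to 0.28. It was -0.60 without trogocytic replicate 3 and -0.63 without non-trogocytic replicate 2. Cathepsin E, its relative of stomach epithelium and immune cells, was low. Ctse (chromosome 1, 131638306 to 131675505, plus strand) stood at 4.83, 3.54, 2.26 and 5.6 TPM in trogocytic replicates 1 to 4, against 4.81, 11.1, 0.417 and 2.46 TPM in non-trogocytic replicates 1 to 4. It was the 1 member with a fold change above 0, 0.18 ± 0.65, and that sign rested on non-trogocytic replicate 3, without which the value was -0.35. The direction also depended on the scale, as mean TPM was lower in trogocytic (4.06) than in non-trogocytic (4.69) co-cultures.

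Cathepsin A protects neuraminidase 1 and beta-galactosidase in a lysosomal complex. Ctsa (chromosome 2, 164832873 to 164841032, plus strand) stood at 19.0, 10.9, 6.12 and 43.7 TPM in trogocytic replicates 1 to 4, against 47.4, 82.3, 5.57 and 7.89 TPM in non-trogocytic replicates 1 to 4. Both groups held high and low libraries, and the log2 fold change was -0.41 ± 0.85. Its sign and size rested on single libraries, with -0.99 without non-trogocytic replicate 3, 0.0002 without trogocytic replicate 3 and 0.23 without non-trogocytic replicate 2. Of its partners, Neu1 averaged 7.55 ± 2.77 TPM in trogocytic and 6.99 ± 2.37 TPM in non-trogocytic co-cultures, and Glb1 1.34 ± 1.61 TPM in trogocytic and 3.33 ± 1.75 TPM in non-trogocytic co-cultures. Neither passed the test.

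**Figure D2:**
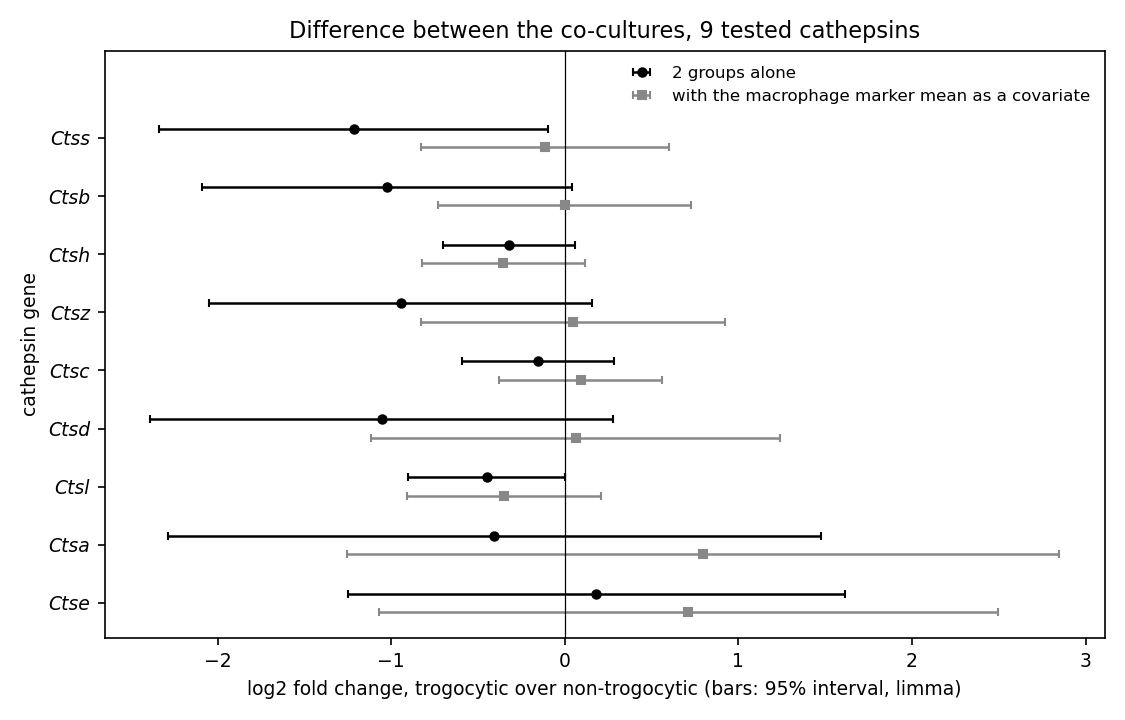
Log2 fold change, trogocytic over non-trogocytic, of the 9 tested cathepsins on the horizontal axis, with 95% limma intervals (n = 4 per group). Black circles are the comparison of the 2 groups alone and grey squares the same with the mean of the macrophage markers as a covariate. The black interval lies wholly below 0 for Ctss alone, and the grey values of Ctss and Ctsb are -0.11 and 0.0012.

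Macrophage markers moved with the cathepsins. The sum of 15 macrophage markers was 4420, 1518, 1321 and 3443 TPM in trogocytic replicates 1 to 4, against 13167, 5450, 6638 and 3008 TPM in non-trogocytic replicates 1 to 4. Of the 14 tested, 13 had a fold change below 0, with a median of -0.77. None was called by limma, and 4 had an unadjusted p below 0.05. Lyz2, the macrophage lysozyme that made up most of that sum, averaged 2334 ± 1305 TPM in trogocytic and 6418 ± 4020 TPM in non-trogocytic co-cultures. Csf1r, the receptor for the macrophage growth factor, was low, at 0.175 to 0.63 TPM in trogocytic and 0.727 to 4.88 TPM in non-trogocytic libraries.

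The level of the cathepsins was also set against those markers within each library. Summed cathepsin TPM over summed macrophage marker TPM was 1.12, 1.28, 1.43 and 1.14 in trogocytic replicates 1 to 4, against 0.812, 1.13, 0.841 and 1.02 in non-trogocytic replicates 1 to 4. Ctss per Lyz2 was 0.771, 0.625, 0.767 and 0.675 in trogocytic replicates 1 to 4, against 0.654, 0.547, 0.621 and 0.616 in non-trogocytic replicates 1 to 4. Both ratios overlapped between the groups, with trogocytic replicates 1 and 3 the highest 2 for Ctss per Lyz2. With the mean of the macrophage markers as a covariate, the log2 fold change was -0.11 for Ctss, 0.0012 for Ctsb, 0.04 for Ctsz and 0.06 for Ctsd. It was -0.35 for both Ctsh and Ctsl, close to their values without the covariate, and 0.09 for Ctsc. For Ctsa it was 0.80, against -0.41 without the covariate, and for Ctse 0.71, against 0.18. None was called either way. Lyz2, one of the markers, tracked Ctss over the libraries (r = 0.989), so the covariate is not independent of the cathepsins.

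The members fell into patterns over the libraries that the groups did not define. Ctsb, Ctsz and Ctsd moved together, with Pearson's r of log2(TPM + 1) over the 8 libraries of 0.983 for Ctsb and Ctsz, 0.966 for Ctsb and Ctsd, and 0.952 for Ctsz and Ctsd. Ctss correlated with Ctsb at 0.849 and with Ctsh at 0.305, and Ctsl with Ctse at 0.03. These values describe the 8 libraries only, which also differed in depth and in their sums of cell type markers. Non-trogocytic replicate 1 was the highest library for Ctss, Ctsc and Ctsl, and non-trogocytic replicate 2 for the other 7 members.

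**Figure D3:**
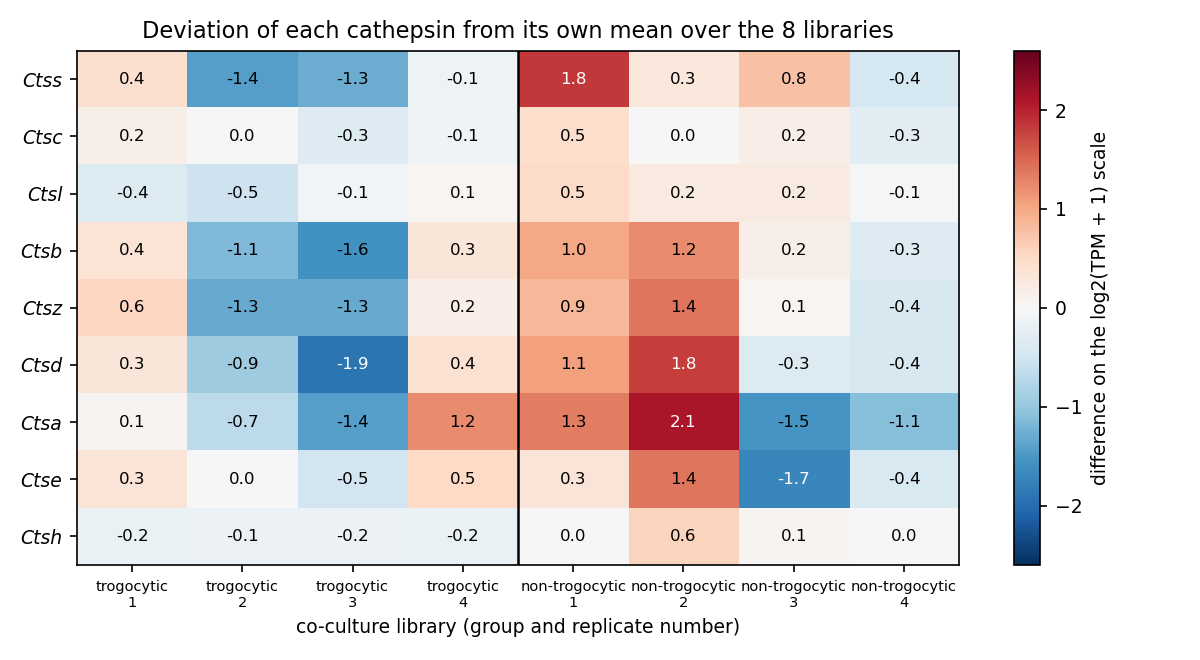
Difference of each tested cathepsin from its own mean over the 8 libraries, in units of log2(TPM + 1), with genes down the page and libraries across, trogocytic left of the line. Red is above and blue below the mean. Ctsb, Ctsz and Ctsd share their high and low libraries, with trogocytic replicates 2 and 3 low and non-trogocytic replicate 2 high.

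These libraries also differed in how GC-rich transcripts stood against GC-poor ones. The difference of the median deviations of the GC-richest 10% and GC-poorest 10% of genes was -0.03, -0.11, -0.29 and 0.12 on the log2 scale in trogocytic replicates 1 to 4, against -0.36, 0.64, -0.18 and 0.06 in non-trogocytic replicates 1 to 4. Non-trogocytic replicate 2 was the highest, and non-trogocytic replicate 1 the lowest. Ctsz, Ctsd and Ctsa were GC-rich, with transcripts of 57.3, 55.9 and 54.5% GC, and Ctsc was GC-poor with 41.1%. After a correction for GC content no member was called and none changed the sign of its fold change.

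The tested genes outside the family whose levels most resembled each member, by Pearson's r over the 8 libraries among 4381 genes with a mean of at least 20 TPM, differed between members. For Ctss they were Clec7a (0.991), which encodes the fungal receptor dectin-1, Lyz2 (0.989) and Pla2g7 (0.988). For Ctsb they included the complement gene C1qb (0.981) and Gpnmb (0.974). For Ctsz they included Psap (0.971) and Rab8b (0.970). For Ctsd they included Psap (0.989), which encodes the precursor of the saposins, and the ferritin gene Ftl1 (0.969). For Ctsh they included Arpc4 (0.944) and Lamtor1 (0.914). Ctsc was closest to Gpr65 (0.978) and Ctsa to Osbpl9 (0.963). The nearest 3 of Ctsl included Rab32 (0.906) and Gstm1 (0.903).

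**Figure D4:**
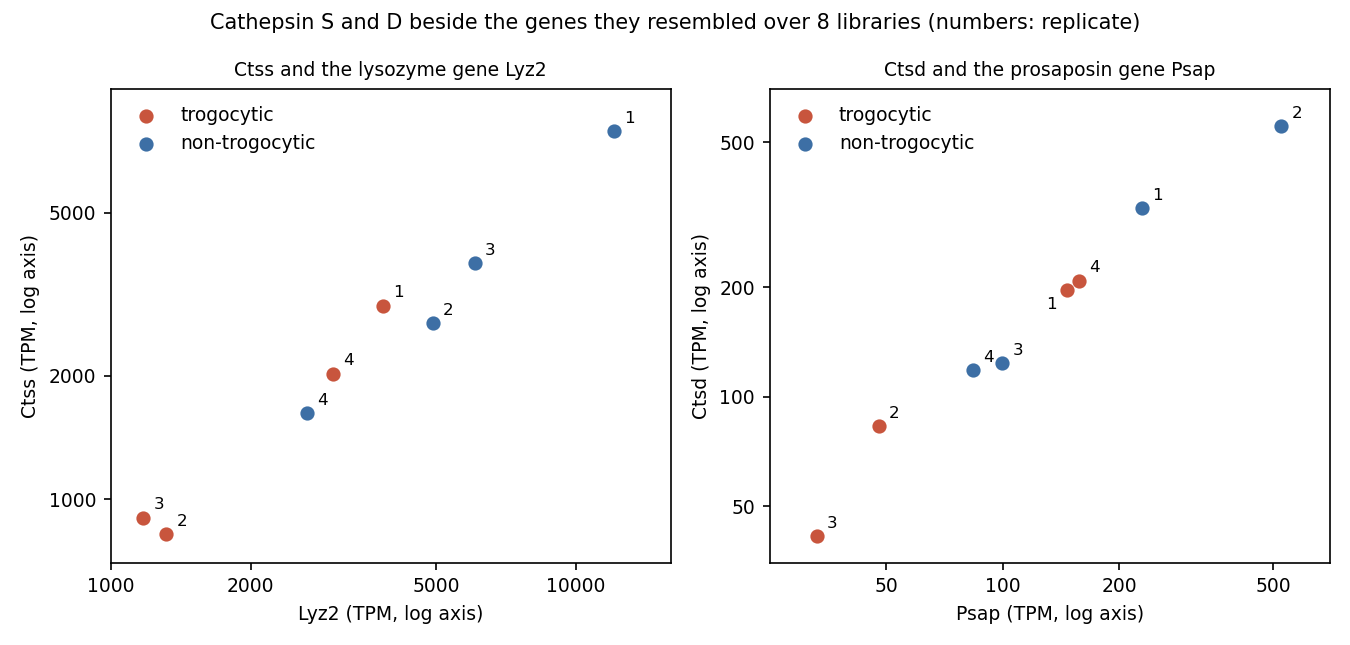
TPM of Ctss against Lyz2 (left) and of Ctsd against Psap (right), both axes logarithmic. Each point is 1 of the 8 libraries, coloured by group and numbered by replicate. Both pairs lie near a line through both groups, at r = 0.989 for each.

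Members listed as mostly of immune cells were Ctss, Ctsk, Ctsz and Ctsc. They were set against those listed as also made by epithelium: Ctsb, Ctsd, Ctsl, Ctsa, Ctsh and Ctse. The mean log2(TPM + 1) of the immune members minus that of the others was 0.62, 0.31, 0.63 and 0.02 in trogocytic replicates 1 to 4, against 0.71, 0.61, 1.94 and 0.53 in non-trogocytic replicates 1 to 4. The group means were 0.40 ± 0.29 in trogocytic and 0.95 ± 0.67 in non-trogocytic co-cultures, a difference of -0.55, about the pooled SD of 0.52. Without non-trogocytic replicate 3 it was -0.22, and with Ctsh and Ctse counted as immune it was 0.0018. With Ctsc counted as also epithelial it was -0.91, so the value depended on where these genes were placed. It also rested on Ctsk, 1 of the 4 immune members, which was untested and low. Against its own mean log2(TPM + 1) over the 8 libraries, Ctsk stood at -0.97 in each trogocytic library. In non-trogocytic replicates 1 to 4 it stood at -0.17, 3.00, 2.015 and -0.97. The contrast without Ctsk was not computed. Over the 8 libraries the levels also cut across these sets. Ctsk, which fibroblasts make too, correlated with Ctsh at 0.897 and with Ctss at 0.405, and Ctsz correlated with Ctsb at 0.983. Within its own set, Ctss correlated with Ctsc at 0.831 and with Ctsz at 0.815, against 0.849 with Ctsb. Among the 3 tested immune members the median fold change was -0.95 (3 of 3 below 0), and among the 6 others -0.43 (5 of 6 below 0). Whether these sets differ was not tested.

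The summed level of the 10 genes was 4952, 1939, 1895 and 3923 TPM in trogocytic replicates 1 to 4, against 10691, 6183, 5584 and 3057 TPM in non-trogocytic replicates 1 to 4. Trogocytic replicates 2 and 3 were the lowest, and the groups overlapped through non-trogocytic replicate 4. The sums were 0.19 to 1.07% of all TPM.

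**Figure D5:**
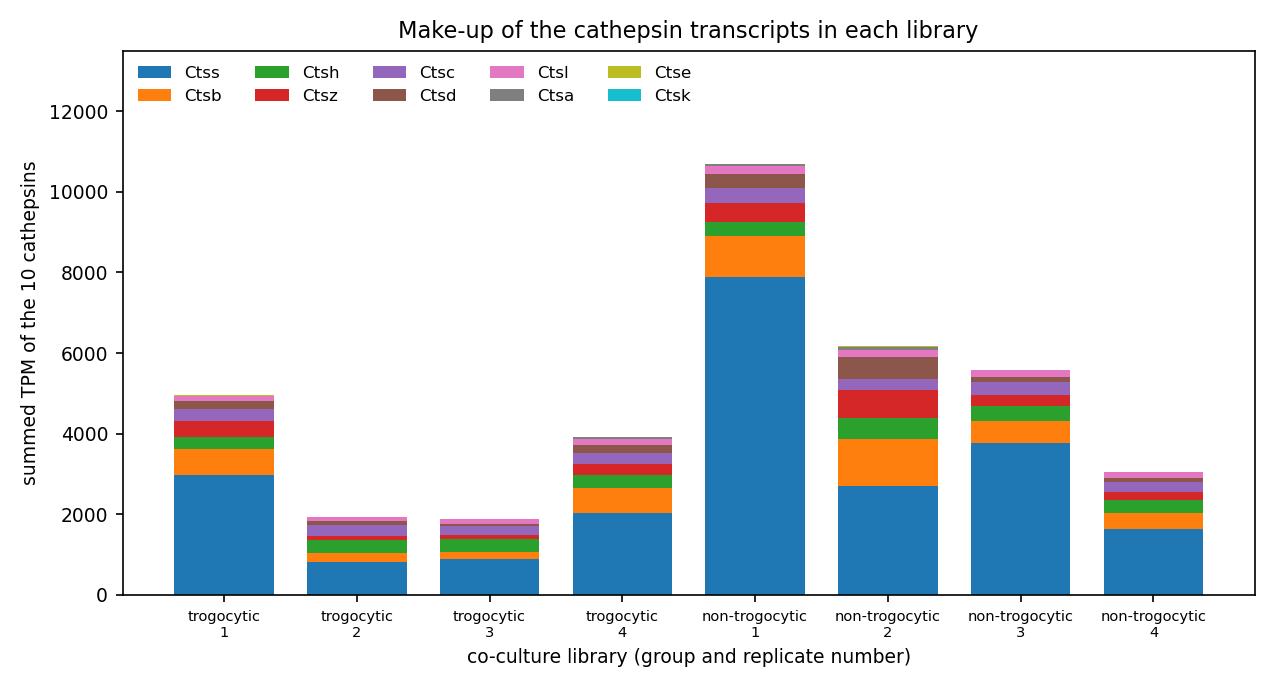
Summed TPM of the 10 cathepsins on the vertical axis for each library, trogocytic left and non-trogocytic right, with bar segments for single genes. The bars run from 1895 TPM in trogocytic replicate 3 to 10691 TPM in non-trogocytic replicate 1, and Ctss is the largest segment in every library.

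Of the inhibitors, Cstb, Cst3 and Serpinb6a were abundant, and the other 11 in the files averaged under 10 TPM. Cstb, which encodes the intracellular cystatin B, averaged 1197 ± 207 TPM in trogocytic and 1699 ± 926 TPM in non-trogocytic co-cultures. Cst3, which encodes the secreted cystatin C, averaged 706 ± 83.9 TPM in trogocytic and 954 ± 225 TPM in non-trogocytic co-cultures, a log2 fold change of -0.41 ± 0.18. Cst6, which encodes the epithelial cystatin E/M, stood at 10.9, 13.7, 9.37 and 10.7 TPM in trogocytic replicates 1 to 4, against 4.70, 7.41, 5.24 and 4.75 TPM in non-trogocytic replicates 1 to 4. Its groups did not overlap, as in 2.68% of all tested genes. The log2 fold change of 0.90 ± 0.38 did not pass (limma adjusted p = 0.9998). Of 16 listed inhibitors 14 were in the files and 6 were tested, 2 with a fold change below 0 and 4 above 0. By limma 0 were called and 2 had an unadjusted p below 0.05.

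Genes that process and sort the cathepsins were tested for 11 of 14, with 8 fold changes below 0 and a median of -0.32. By limma 0 were called, and 0 had an unadjusted p below 0.05. Lgmn, which encodes the legumain that cuts cathepsins into their 2-chain forms, averaged 248 ± 166 TPM in trogocytic and 379 ± 153 TPM in non-trogocytic co-cultures. Psap averaged 96.2 ± 64.7 TPM in trogocytic and 234 ± 204 TPM in non-trogocytic co-cultures. Of 10 tested genes of the class II pathway that cathepsins serve, 7 had a fold change above 0, with a median of 0.38, and limma called 0, with 2 at an unadjusted p below 0.05. Markers of other antigen-presenting cells lay beside them: 3 of 3 tested B cell markers and 2 of 2 tested dendritic cell markers had a fold change above 0. This was not particular to antigen-presenting cells. The fold change was also above 0 for 8 of 8 tested T cell, 2 of 2 natural killer and 6 of 7 neutrophil markers. It was below 0 for the 1 tested mast cell and basophil marker. Summed class II genes were 3353, 897, 926 and 2645 TPM in trogocytic replicates 1 to 4, against 2725, 1225, 1306 and 577 TPM in non-trogocytic replicates 1 to 4. Summed B cell markers were 270.1, 58.4, 55.2 and 219 TPM in trogocytic replicates 1 to 4, against 236, 66.9, 103 and 32.3 TPM in non-trogocytic replicates 1 to 4. Both sums were highest in trogocytic replicate 1 and lowest in non-trogocytic replicate 4, and so were summed T cell markers (1149 and 69.0 TPM). All 8 B cell markers were above 0 in some library, as were 7 of 9 dendritic cell markers, with Xcr1 and Clec9a at 0 in all. Summed dendritic cell markers ran from 21.1 to 47.0 TPM in trogocytic and from 1.62 to 24.9 TPM in non-trogocytic libraries. The 2 tested ones were Ccr7 and Cd209a. Of the untested ones above 0, Itgax, Flt3, Zbtb46 and Siglech had a lower mean in trogocytic co-cultures and Fscn1 a higher one. Itgax averaged 0.05 TPM in trogocytic and 1.41 TPM in non-trogocytic co-cultures. The part of these cells in the class II values was not tested. Cd74, the invariant chain that cathepsin S cuts, averaged 1375 ± 886 TPM in trogocytic and 998 ± 685 TPM in non-trogocytic co-cultures. Ifi30, a thiol reductase of the class II compartment, averaged 22.7 ± 14.6 TPM in trogocytic and 50.1 ± 18.2 TPM in non-trogocytic co-cultures. Neither passed the test.

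Of 16 other cathepsin genes and relatives, 9 were listed at 0 in every library and 5 were tested, with 2 fold changes below 0 and 3 above. By limma 0 were called, also 0 at an unadjusted p below 0.05. Ctso averaged 4.61 ± 5.55 TPM in trogocytic and 8.999 ± 6.95 TPM in non-trogocytic co-cultures. Ctsw, a cathepsin of cytotoxic lymphocytes, stood at 7.04, 3.37, 0 and 17.1 TPM in trogocytic replicates 1 to 4, against 7.89, 0, 0 and 0 TPM in non-trogocytic replicates 1 to 4. Lysosome membrane and acidification genes had a fold change below 0 in 13 of 14, with a median of -0.49. Limma called 0, with 1 at an unadjusted p below 0.05.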

How the data were processed

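RNA was measured in 8 mixed co-cultures, 4 per group. Per the labels' protocols, polyA RNA was made into libraries with a low-input kit and read as 100 bp pairs. Tools and builds in the submitters' processing notes are HISAT2, StringTie (1.3.3), DESeq (2), GRCm38 and mm10. The sources used here give neither annotation release nor strand setting. Per the file headers, each deposited table lists coverage, FPKM and TPM for every gene. The authors' TPM have an equal sum in all libraries. The deposited coverage served only to estimate depth (1.39 to 1.84 Gb of aligned bases per library), and FPKM only as an alternative.

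TPM was summed over rows per gene ID. Genes with at least 1 TPM in 4 or more libraries (11433) were tested with limma 3.58.1 (R 4.3.3) on log2(TPM + 1) with a mean-variance trend, two-sided, with Benjamini-Hochberg adjustment over all of them. Calls needed an adjusted p below 0.05. The script was tested on simulated data. Named genes are the 10 members, of each of 22 lists the 2 tested genes with the highest mean and the 2 with the smallest p, and for members of at least 20 TPM the 3 genes most like them. A part of these is printed. Csf1r, Serpinb6a, the untested dendritic cell markers and genes at 0 were named after their values were seen. Members and lists were chosen with earlier results of these data known. Symbols and coordinates (GRCm38) are as deposited. Alternatives changed the unit, pseudocount, filter, scaling, trend, replicate block, each library left out, 2 covariates and, added after seeing the data, GC content.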

Additional observations from a re-analysis of the deposited data

Results flagged for a closer look

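Among 29 sets of 4 libraries examined for a library far from the other 3, 2 had one, and chance gives about 1 in 20. Ctsh stood at 526.5 TPM in non-trogocytic replicate 2, where the gap to the next library took up 0.874 of the whole range of its group. The immune minus epithelial difference of the cathepsins stood at 1.945 on the log2 scale in non-trogocytic replicate 3, with a gap of 0.875 of the range. That library had the lowest Ctse (0.417 TPM) and Ctsa (5.57 TPM) of all 8 and held Ctsk at 6.92 TPM. It was also the 1 library with hepatocyte markers, at 128 TPM in sum. The part of the admixed cells in these values was not tested.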

How the results depend on the processing

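No tested cathepsin was called under any of the 22 alternatives, and Ctss had an unadjusted limma p below 0.05 in 15 of them. Ctss, Ctsh and Ctsl kept a fold change below 0 in all 22, with ranges of -1.58 to -0.11, -0.38 to -0.18 and -0.55 to -0.32. With the macrophage marker mean as a covariate the sign turned for Ctsa (0.7976), Ctsb (0.0012), Ctsc (0.0929), Ctsd (0.0623) and Ctsz (0.0448). It also turned for Ctsa without trogocytic replicate 3 (0.0002) and without non-trogocytic replicate 2 (0.2326), and for Ctse without non-trogocytic replicate 3 (-0.352). With each library left out, Ctsa ran from -0.9888 to 0.2326 and Ctse from -0.352 to 0.6776. With Ptprc, the leukocyte antigen CD45, as a covariate Ctss stood at -1.58 (limma adjusted p = 0.1278). The cause of these shifts was not tested.

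The number of genes called over the whole table, 6, was 2 at a pseudocount of 0.01, 1 with no filter, 1 with no trend, 0 without the first replicates of both groups, and 0 to 3 with each library left out. Of the 105 tested genes on the lists 0 were called, and 1, Atp6v0d2, was called with Ptprc as a covariate and without non-trogocytic replicate 4 (0 to 1 with each library left out). The immune minus epithelial difference of -0.55 moved to 0.0018 with Ctsh and Ctse among the immune members and to -0.9054 with Ctsc among the epithelial ones, and ran from -0.69 to -0.22 with each library left out. The log2 difference of the summed level was -0.996 and ran from -1.30 to -0.70.

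Deviations of same-numbered libraries correlated at 0.235, 0.005, 0.062 and -0.093 for replicates 1 to 4. Those of differently numbered libraries ran from -0.214 to 0.166. Only the first replicates lay above that range, so these values do not settle whether the numbers pair the libraries. With the replicate block Ctss kept its log2 fold change of -1.22, and its SE fell from 0.51 to 0.35. The SE rose for Ctsl alone (0.21 to 0.22) and fell for the other tested members. With the replicate block 0 genes were called, also 0 with the block and median-of-ratios scaling, and 1 with the block and the GC correction. The levels of Ctse and Ctsk rest on few reads.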

Other observations

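Atp6v0d2, a proton pump subunit of macrophages and osteoclasts that acidifies the compartment in which cathepsins work, had a larger fold change than any tested cathepsin. It stood at 52.3, 23.1, 31.7 and 29.4 TPM in trogocytic replicates 1 to 4, against 249, 158, 207 and 71.3 TPM in non-trogocytic replicates 1 to 4. The groups did not overlap, as in 2.68% of all tested genes. The log2 fold change was -2.22 ± 0.39 (limma adjusted p = 0.1874), so it did not pass.

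The 2 detected osteoclast markers stood on opposite sides. Acp5, which encodes a lysosomal acid phosphatase, averaged 43.9 ± 27.2 TPM in trogocytic and 93.5 ± 44.0 TPM in non-trogocytic co-cultures. Nfatc1, which encodes a transcription factor of osteoclasts and T cells, averaged 4.20 ± 1.55 TPM in trogocytic and 1.54 ± 0.873 TPM in non-trogocytic co-cultures. The groups did not overlap for either, as in 2.68% of all tested genes, and neither passed (limma adjusted p = 0.9998 for each). The gaps were narrow. For Acp5 the highest trogocytic library stood at 67.6 TPM and the lowest non-trogocytic one at 69.8 TPM. For Nfatc1 the lowest trogocytic library stood at 2.79 TPM and the highest non-trogocytic one at 2.67 TPM.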
